A study of Mus musculus with 6 samples.

Results

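The genes described here are 10 membrane and marker genes of the alveolar type I cell: Pdpn, Hopx, Ager, Emp2, Akap5, Rtkn2, Clic5, Gprc5a, Cav1 and Cav2. They were taken by name, through the gene symbol that the array's annotation gives each probe set (a set of short oligonucleotides against the 3' part of a transcript, which yields 1 signal). All 10 genes were on the array, with 20 of its 45101 probe sets, and all 20 passed the filter on dim signals that left 27022 probe sets for testing. Total lung RNA of mice labelled Carm1 knockout, taken at embryonic day 18.5, was compared with lung RNA of mice labelled wild type, 3 arrays per genotype. The study's design text gives the same embryonic stage for both genotypes, but each wild-type sample is itself labelled neonatal, so by the labels genotype and stage cannot be told apart. Strain, the allele of the knockout and litter are not given in the sources used here. Nothing says whether the 3 samples of a genotype came from separate fetuses. Transcripts of the Y chromosome were present on knockout replicate 2 and wild type replicate 3 only, so the 3 arrays of a genotype do not all repeat 1 animal. Arrays of the same sex within a genotype may still do so. Every p-value here therefore sets genotype against the spread among these samples, which may be technical in part. In whole lung, fewer cells of a type and less RNA per cell cannot be told apart.

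Alveolar type I cells are the thin, very flat epithelial cells that cover most of the gas exchange surface, and they arise in the last part of gestation as the distal airspaces widen. Their membranes carry podoplanin (Pdpn) on the airspace side and the receptor RAGE (Ager) on the basal side, and they are rich in caveolae, the flask-shaped membrane pits built from caveolins. Carm1 encodes an enzyme that methylates arginines in histones and other proteins and works with transcription factors. Several of the 10 genes are also used by other cells of the lung: caveolins by endothelium, smooth muscle and fibroblasts, podoplanin by lymphatic endothelium and mesothelium, Hopx by cardiac muscle, and Gprc5a by airway epithelium.

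The 6 arrays had been scaled to the same trimmed mean, and their median signals lay between 106 and 121. Correlations between arrays ran from 0.937 to 0.969, and the highest was between arrays of different genotype. The targeted gene Carm1, measured by 1 probe set, had signals of 395, 374 and 511 on the knockout arrays, against 814, 678 and 865 on the wild-type arrays. All 3 knockout values lay below all 3 wild-type values, with a log2 difference of -0.89 (SE 0.16, limma adjusted p = 0.105). Bacterial control RNA was present on wild type replicates 1 and 3 and on none of the other 4 arrays, so values are also given below for the knockouts against wild type replicate 2 alone. Transcripts of the Y chromosome were present on knockout replicate 2 and wild type replicate 3, 1 array per genotype. The lung epithelial markers Sftpc, Scgb1a1, Epcam, Cdh1, Foxa2 and Nkx2-1 were all above the filter on dim signals, and none of them passed the adjusted threshold between the genotypes.

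All 10 genes were lower in Carm1 knockout lung, and all 20 probe sets pointed the same way, where 45.4% of all genes and 47.3% of all probe sets tested were on the lower side. The differences were moderate: the median over the 10 genes, each at its probe set of highest mean signal, was -0.57 on the log2 scale, with a range from -0.81 for Akap5 to -0.29 for Hopx, against a median of 0.029 over all 12947 genes tested. In 8 of the 10 genes, and at 17 of the 20 probe sets, the 3 knockout arrays lay below the 3 wild-type arrays. Over all features tested, the same was true of 10.5% of genes and 9.36% of probe sets. None of the 20 probe sets passed a limma adjusted p of 0.05 over all probe sets (adjusted p from 0.0934 to 0.717), a threshold that 0.0259% of probe sets passed on the lower side. At an unadjusted p under 0.05 limma took 17 of the 20 probe sets and 8 of the 10 genes, where 6.31% of all probe sets and 7.36% of all genes were lower at that level. A stricter rule, an unadjusted p under 0.01 with at least 1 log2 unit lower, took 1 of the 20, a probe set of Emp2, and 0.359% of all probe sets.

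**Figure D1:**
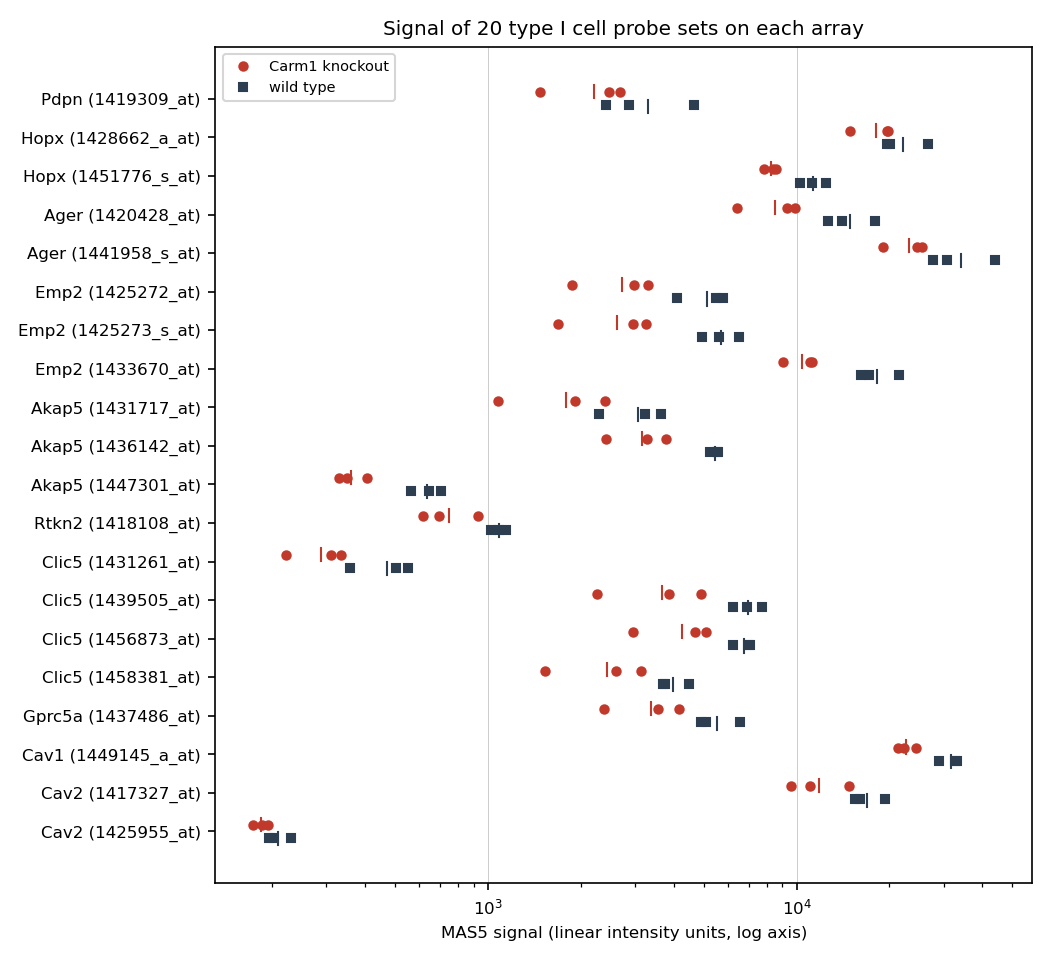
Signal of each of the 20 probe sets on each array (x axis: linear MAS5 signal units on a log axis; circles: 3 Carm1 knockout arrays; squares: 3 wild-type arrays; vertical ticks: group means). At 17 of the 20 probe sets the circles lie left of all the squares, and the 3 exceptions are Pdpn, 1 probe set of Hopx and 1 of Akap5.

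The stretch of 250 bases before the annotated start of 4 of the genes is shown for these reasons: Emp2 and Akap5 had the largest differences of the 10, and Cav2 and Cav1 are neighbours on chromosome 6 that share a coat. Sequences are RefSeq's, on the build GRCm38.p6, written 5′ to 3′ on the gene's strand, and capitals mark the motifs searched that lie wholly within the stretch. The Emp2 stretch is chr16:10313969-10314218, minus strand, that of Akap5 chr12:76324641-76324890, plus strand, that of Cav2 chr6:17280935-17281184, plus strand and that of Cav1 chr6:17306085-17306334, plus strand, upstream of the first of its 2 annotated starts.
Emp2: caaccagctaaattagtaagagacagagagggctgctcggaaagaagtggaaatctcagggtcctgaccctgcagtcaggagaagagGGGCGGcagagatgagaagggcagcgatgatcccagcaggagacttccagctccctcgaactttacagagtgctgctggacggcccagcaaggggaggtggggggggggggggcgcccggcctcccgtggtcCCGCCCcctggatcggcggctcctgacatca
Akap5: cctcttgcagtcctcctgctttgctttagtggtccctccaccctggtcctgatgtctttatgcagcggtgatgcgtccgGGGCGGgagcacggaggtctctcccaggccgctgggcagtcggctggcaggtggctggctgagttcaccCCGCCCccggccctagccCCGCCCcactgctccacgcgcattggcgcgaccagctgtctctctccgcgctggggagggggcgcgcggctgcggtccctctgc
Cav2: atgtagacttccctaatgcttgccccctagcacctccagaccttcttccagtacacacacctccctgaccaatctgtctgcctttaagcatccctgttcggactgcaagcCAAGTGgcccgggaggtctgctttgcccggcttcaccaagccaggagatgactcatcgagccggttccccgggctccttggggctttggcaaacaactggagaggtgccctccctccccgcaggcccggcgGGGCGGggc
Cav1: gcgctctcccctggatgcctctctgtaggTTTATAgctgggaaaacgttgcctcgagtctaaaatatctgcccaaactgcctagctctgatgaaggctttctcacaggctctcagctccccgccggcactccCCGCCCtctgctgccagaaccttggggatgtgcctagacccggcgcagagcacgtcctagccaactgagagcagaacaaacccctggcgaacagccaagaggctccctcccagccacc
The motifs were searched on both strands of the 300 bases from 250 before to 50 after each start, for the 8 of the 10 genes that the promoter table held, with 10 starts in all. The SP1 motif GGGCGG was found for 6 of the 8 genes, at 6 of 10 starts, and in 35.7% of all 32851 promoters. These 10 windows were richer in G and C, the letters of that motif, at a median of 59.2% against 52.7% over all promoters. In the stretches above, the SP1 motif is the capitals of Emp2 and Akap5, the last capitals of Cav2 and the second of Cav1. The NKX2-1 core CAAGTG was found for Cav2 (its first capitals) and for Hopx, and in 13.6% of all promoters, and TATAAA for Cav1 (its first capitals, on the other strand) and in 13.6%. The TEAD motif GGAATG, held by 14.7% of promoters, and the longer glucocorticoid response element, held by 0.475%, were found at none of the 10 starts, which says only that these letters are not in these windows. A match is a description of the letters and not of binding.

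Emp2, a tetraspan membrane protein of the PMP22 family, stood furthest apart between the genotypes. At its probe set of highest signal (1433670_at) the values were 11038, 11231 and 9065 in Carm1 knockout lungs, against 21395, 17223 and 16215 in wild-type lungs. The lowest wild-type array was well above the highest knockout array, and the knockouts' geometric mean was 57.3% of wild type (95% interval 46.5% to 70.6%). In limma the fit gave a log2 difference of -0.80, SE 0.13, limma adjusted p = 0.0934. Its other 2 probe sets, 1425273_s_at and 1425272_at, differed by -1.16 and -0.94 on the log2 scale, and the groups did not overlap at either of them.

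Ager encodes RAGE, an immunoglobulin-like receptor of the type I cell's basal membrane. Probe set 1420428_at gave 9292, 9872 and 6402 in Carm1 knockout lungs, against 17890.4, 14008 and 12645 in wild-type lungs (log2 difference of -0.81, SE 0.18, limma adjusted p = 0.141). Probe set 1441958_s_at, whose signal was the higher one, gave 24622, 25496 and 19072 in Carm1 knockout lungs, against 43892, 30683 and 27688 in wild-type lungs. The groups did not overlap at either probe set, but wild type replicate 1 was far above the other 2 wild types at 1441958_s_at, where the log2 difference of -0.55 (SE 0.18, limma adjusted p = 0.262) became -0.35 without it.

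Pdpn encodes podoplanin, a mucin-like glycoprotein of the apical membrane, and its single probe set gave 2476, 2678 and 1480.1 in Carm1 knockout lungs, against 4657, 2857 and 2424 in wild-type lungs. Here the groups overlapped: knockout replicates 1 and 2 lay above wild type replicate 3, and wild type replicate 1 was high. The mean was 2212 ± 642 in Carm1 knockout lungs and 3313 ± 1184 in wild-type lungs (SD, n = 3 each), a difference no larger than the spread within wild type (log2 -0.57, SE 0.28, limma adjusted p = 0.407, exact permutation p = 0.3, two-sided). With wild type replicate 1 left out the log2 difference was -0.30, and with knockout replicate 3 left out it was -0.31.

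Gprc5a, an orphan G protein-coupled receptor first described as induced by retinoic acid, had signals of 3571, 4178 and 2383 in Carm1 knockout lungs, against 6540.1, 5075 and 4907 in wild-type lungs. The knockout values lay below all the wild-type values, and their geometric mean was 60.2% of wild type (95% interval 43.9% to 82.6%). The fit gave a log2 difference of -0.73, SE 0.20, limma adjusted p = 0.192.

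Cav1 and Cav2 encode the caveolins that are found together in the coat of caveolae, with Cav1 needed for the pits to form in lung. Cav1 had signals of 21286, 24427 and 22345 in Carm1 knockout lungs, against 33036, 32683 and 28984 in wild-type lungs. Both groups were tight, with SDs of 1598 around the knockout mean and 2245 around the wild-type mean, and they did not overlap (log2 difference of -0.48, SE 0.10, limma adjusted p = 0.135). It was the 1 gene of the 10 whose lowest array was not knockout replicate 3 at its brightest probe set. For Cav2 the values at probe set 1417327_at were 11049, 14762 and 9594 in Carm1 knockout lungs, against 19380.2, 15453 and 16060.1 in wild-type lungs. Knockout replicate 2 came close to the lowest wild type, and the knockouts' geometric mean was 68.8% of wild type (95% interval 53.3% to 88.8%). The fit gave a log2 difference of -0.54, SE 0.16, limma adjusted p = 0.22. The second probe set of Cav2, 1425955_at, was much dimmer, at 195, 173 and 185 in Carm1 knockout lungs, against 203, 196 and 230.2 in wild-type lungs, and differed by only -0.18 (SE 0.19, limma adjusted p = 0.717). Against wild type replicate 2 alone its difference was -0.09.

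Clic5, a chloride intracellular channel family protein that associates with ezrin and the actin cortex, was measured by 4 probe sets. Its probe set of highest mean signal, 1456873_at, gave 5089.5, 4705 and 2943 in Carm1 knockout lungs, against 7076, 6939 and 6213 in wild-type lungs. The groups did not overlap there, the knockouts spread more widely than the wild types, and knockout replicate 3 was the lowest (log2 difference of -0.70, SE 0.19, limma adjusted p = 0.182). At 1439505_at the values were 4902, 3862 and 2252 in Carm1 knockout lungs, against 6902, 7716 and 6222 in wild-type lungs, with a log2 difference of -0.99. The other 2 probe sets, 1458381_at and 1431261_at, differed by -0.77 and -0.70, again without overlap. Against wild type replicate 2 alone the difference at 1431261_at was -0.33. Without knockout replicate 3 the difference at 1456873_at was -0.46.

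Akap5 encodes the anchoring protein known in rodents as AKAP150, which holds protein kinase A and calcineurin at the membrane. At probe set 1436142_at the signals were 3269.5, 3788 and 2409.6 in Carm1 knockout lungs, against 5571, 5536 and 5247 in wild-type lungs. The 3 wild types lay within a narrow band and the knockouts well below it, at 56.9% of wild type (95% interval 44.7% to 72.4%). The fit gave a log2 difference of -0.81, SE 0.15, limma adjusted p = 0.109. The 3 probe sets of Akap5 gave nearly the same difference, -0.82 at 1431717_at and -0.82 at 1447301_at, although at 1431717_at the groups overlapped because wild type replicate 2 (2296) was below knockout replicate 1 (2395). Against wild type replicate 2 alone the difference at 1431717_at was -0.43.

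Rtkn2 encodes rhotekin-2, a scaffold protein of signalling complexes, and its 1 probe set gave 694, 927 and 619 in Carm1 knockout lungs, against 1144, 1087 and 1023 in wild-type lungs. The groups did not overlap, and knockout replicate 2 lay nearest to the wild types (log2 difference of -0.56, SE 0.16, limma adjusted p = 0.2).

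Hopx encodes a homeodomain-only protein that does not bind DNA and acts as a cofactor, and it had the smallest difference of the 10. Probe set 1428662_a_at gave 19602, 19801 and 14846 in Carm1 knockout lungs, against 26593, 19634 and 20055 in wild-type lungs. The groups overlapped, since knockout replicates 1 and 2 were level with wild type replicates 2 and 3 (log2 difference of -0.29, SE 0.16, limma adjusted p = 0.462, exact permutation p = 0.2, two-sided). Leaving out wild type replicate 1 gave a log2 difference of -0.15, leaving out knockout replicate 3 gave -0.15, and it was -0.13 against wild type replicate 2 alone. The second probe set, 1451776_s_at, gave 8566, 8362 and 7830.3 in Carm1 knockout lungs, against 12418, 11190.3 and 10238 in wild-type lungs, without overlap and with a log2 difference of -0.45 (SE 0.10, limma adjusted p = 0.138).

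**Figure D2:**
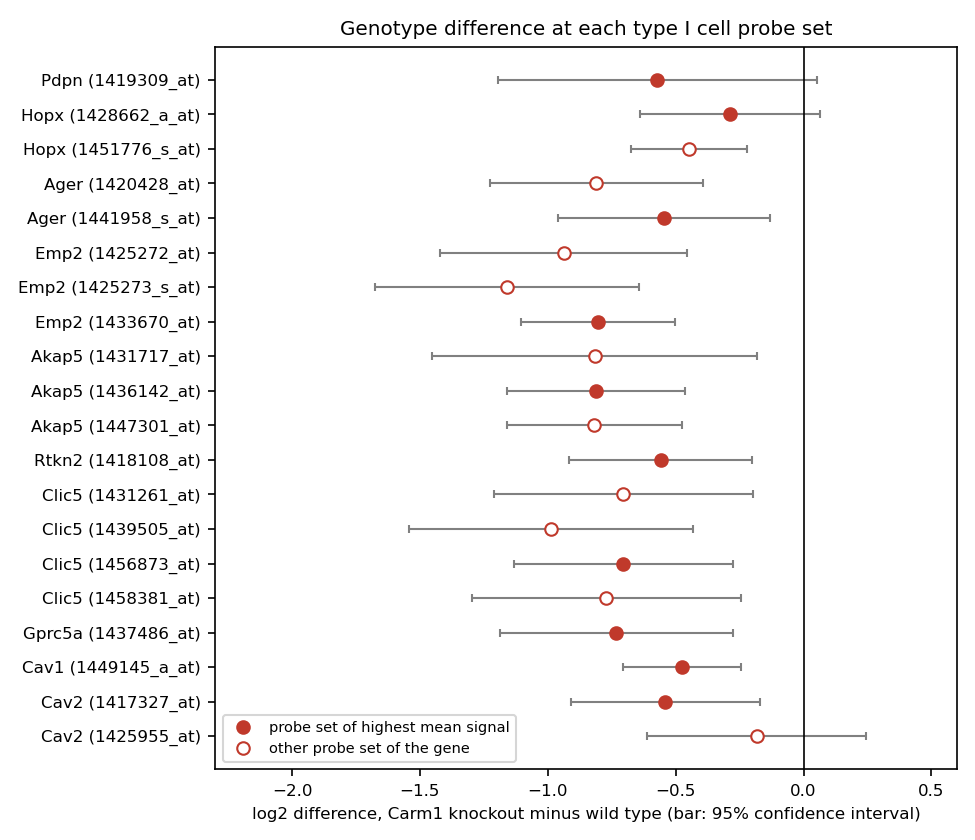
Log2 difference, Carm1 knockout minus wild type, at each probe set (x axis: log2 units; filled circles: the probe set of highest mean signal of each gene; open circles: the others; bars: 95% confidence intervals from limma). All 20 circles lie below 0, and the intervals of Pdpn, 1 probe set of Hopx and the dim probe set of Cav2 reach across 0.

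Where a gene had several probe sets they ran alike in direction, and mostly in size. Across the 6 arrays the log2 values of probe sets of the same gene correlated at 0.96 for Ager, 0.93 to 0.99 for Emp2, 0.82 to 0.99 for Clic5, 0.76 to 0.91 for Akap5, 0.80 for Hopx and 0.40 for Cav2, whose second probe set had a mean signal of only 197. These correlations are over n = 6 arrays that hold both genotypes. The widest gap in size within a gene was in Emp2, from -1.16 to -0.80 on the log2 scale, and the narrowest in Akap5, from -0.82 to -0.81. Signals of different probe sets are not set against each other here, since each has its own affinity.

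The 10 genes also varied together from array to array. Each gene's log2 value was set against its own wild-type mean and averaged over the 10 genes. These averages were -0.53, -0.37 and -0.92 on the knockout arrays and 0.22, -0.06 and -0.16 on the wild-type arrays. Knockout replicate 3 was the lowest of the 6 arrays in 9 of the 10 genes, and wild type replicate 1 the highest in all 10. The share of all genes is not given beside these counts. Knockout replicate 2 was the nearest to wild type, with Hopx at -0.14, Cav2 at -0.19 and Rtkn2 at -0.22 below their wild-type means. On knockout replicate 3 the genes spread from -1.20 for Gprc5a to -0.50 for Cav1. Without that array all 10 genes were still lower and their median was -0.45.

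**Figure D3:**
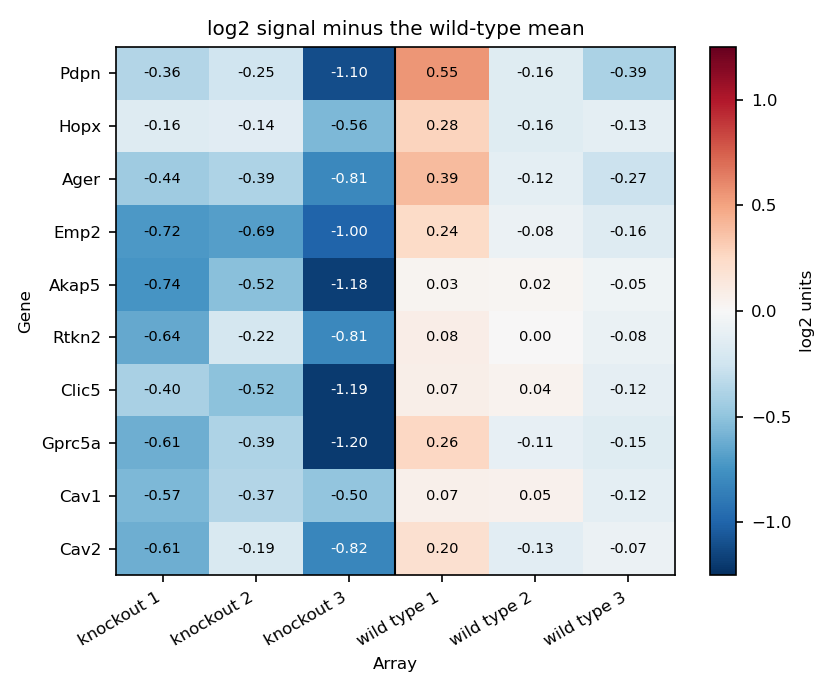
Log2 signal of each gene on each array minus the gene's wild-type mean (columns: 3 Carm1 knockout arrays, then 3 wild-type arrays; colour: log2 units, with the value in each cell). All 30 knockout cells are below 0, and the column of knockout replicate 3 holds the deepest values for every gene but Cav1.

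Over the 6 arrays the 45 pairs of genes correlated with a median r of 0.91, from 0.65 for Hopx with Cav1 to 0.98 for Pdpn with Hopx. After each genotype's own mean was taken out, the median was 0.77, and none of the 45 pairs was below 0. The pair of lowest within-genotype correlation was Clic5 with Cav1, at 0.19. Within genotypes the pair of highest correlation was Pdpn with Emp2, at 0.996, followed by Ager with Emp2, at 0.994, and Pdpn with Ager, at 0.98. These are descriptions over n = 6 arrays that share genotype and scaling, and no median over other gene pairs is given beside them.

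Against wild type replicate 2, the wild-type array without bacterial control RNA, all 3 knockout arrays were lower in 9 of the 10 genes, with 24.4% of all genes tested as the background, and Hopx was the exception. The median difference was then -0.55. The same 10 genes were lower with quantile normalization of the arrays, with a median of -0.61.

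Close relatives of these genes differed in both directions. Of 13 paralogs tested, 8 were lower and 5 higher, with a median of -0.03, against 45.4% lower and 54.6% higher among all genes. Without overlap 4 were lower and 1 higher, against 10.5% and 12.6% of all genes. None passed the adjusted threshold, which 0.0463% of all genes passed on the lower and 0.00772% on the higher side. Pmp22, the myelin protein relative of Emp2, had signals of 5999.98, 5954 and 6906 in Carm1 knockout lungs, against 10483, 7941 and 8318 in wild-type lungs, without overlap (log2 -0.50, limma adjusted p = 0.164). Emp1 was at 9624 ± 845 in knockout and 9811 ± 286 in wild type (log2 -0.03) and Emp3 at 1863 ± 270.3 in knockout and 1734 ± 126 in wild type (log2 0.10). The muscle caveolin Cav3 was higher, at 84.0, 165 and 605 in Carm1 knockout lungs, against 68.4, 62.2 and 49.7 in wild-type lungs, with the highest value on knockout replicate 3 (log2 1.77, limma adjusted p = 0.274). Clic6 and Akap13 differed by -0.28 and -0.30 at their brightest probe sets, and the 5 probe sets of Akap13 ran from -0.30 to 0.22.

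The log2 ratio of a gene to its relative within each array was compared between genotypes for 14 pairs. Such a ratio shows unequal change and not which gene changed. In the pairs of Cav1 and Cav2 with Cav3, the larger difference was that of Cav3, whose wild-type signals were close to the filter on dim signals. In 10 pairs the ratio was lower on all 3 knockout arrays than on all 3 wild-type arrays, and in 4 pairs it overlapped. The exact two-sided permutation p of those 10 was 0.1, the smallest that 3 against 3 arrays can give, and 0.14 after Benjamini-Hochberg adjustment over the 14 pairs, so none passed. The 14 pairs draw repeatedly on the same genes, such as Clic5 and Emp2, all of them already lower, so they are not separate results. No share over other gene pairs is given beside the count of 10. For Emp2 against Emp1 the ratio, set to the wild-type mean, was -0.54, -0.75 and -1.04 in knockout lungs, against 0.20, -0.03 and -0.18 in wild-type lungs. For Akap5 against Akap12 it was -0.89, -0.72 and -1.47 in knockout lungs, against 0.12, -0.16 and 0.04 in wild-type lungs. The ratios of Clic5 to Clic3 and to Clic6, of Rtkn2 to Rtkn and of Akap5 to Akap13 overlapped. Gprc5b and Gprc5c, set against Gprc5a, differed by 0.38 and 0.28 at the probe sets used, but by -0.19 and -0.21 at their second probe sets.

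Genes that work with the caveolins were lower on balance. Of 9 genes of the caveolar coat and neck, with the flotillins, 8 were lower, 3 of them without overlap, against 45.4% and 10.5% of all genes, with a median of -0.25. None of the 9 passed the adjusted threshold. Cavin2, a coat protein of endothelial caveolae, had signals of 9546, 10789.9 and 9528 in Carm1 knockout lungs, against 13199.8, 13806 and 11578 in wild-type lungs (log2 -0.37, limma adjusted p = 0.198). Ehd2, an ATPase of the caveolar neck, was at 1809 ± 333 in knockout and 2356 ± 182 in wild type (log2 -0.40), and Flot1, a flotillin of membrane domains, at 1137 ± 87.1 in knockout and 1549 ± 117 in wild type (log2 -0.45). Cavin1, the main coat protein, was at 3253 ± 925 in knockout and 3798 ± 528 in wild type with overlapping groups, and its 3 probe sets ran from -0.43 to 0.14. Cavin4, the muscle cavin, was at 324 ± 131 in knockout and 599 ± 176 in wild type, also with overlap.

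Podoplanin and Clic5 both bind the ezrin, radixin and moesin proteins, which tie membranes to actin. Of 8 genes of this list, 7 were lower, 4 without overlap, against 45.4% and 10.5% of all genes, with a median of -0.22. Moesin (Msn) had the smallest p of the list, with signals of 6304, 5803 and 5076 in Carm1 knockout lungs, against 9066, 9598 and 7922 in wild-type lungs (log2 -0.63, limma adjusted p = 0.0989), and its second probe set differed by -0.52. The tetraspanin Cd9 was at 8773 ± 845 in knockout and 11379.9 ± 1790.1 in wild type (log2 -0.37) and the galectin Lgals8 at 994 ± 75.7 in knockout and 1220.2 ± 74.9 in wild type (log2 -0.30), both without overlap. The sialomucin Podxl was at 1396 ± 96.7 in knockout and 1729 ± 412 in wild type with overlap. Ezrin (Ezr) and Cd44 also had overlapping groups, at -0.13 and -0.04 on the log2 scale. No gene of the list passed the adjusted threshold.

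Of 7 genes for RAGE ligands and for Diaph1, a formin that binds the tail of the receptor, 3 were lower and 4 higher (median 0.03). For this list and the next, the shares of all genes were 45.4% lower, 54.6% higher and 10.5% lower without overlap. The ligands S100a8 and S100a9, of neutrophils, overlapped between the genotypes and were highest on knockout replicate 1, at 21328 and 17065. The ligand S100a4 was at 416 ± 248 in knockout and 596 ± 137 in wild type, also with overlap. Diaph1 was at 1175 ± 173 in knockout and 1541 ± 124 in wild type without overlap at 1 probe set, but its 3 probe sets ran from -0.40 to 0.25. Of 8 genes for kinase A subunits, calcineurin subunits and adenylate cyclases, partners of Akap5, 7 were lower and 1 higher. Their median was -0.06, and the calcineurin subunit Ppp3ca alone was without overlap, at 2773 ± 330.3 in knockout and 3572 ± 272 in wild type (log2 -0.37). As 1 of 8 genes this is near the share of all genes.

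The YAP and TAZ coactivators act in type I cell differentiation and bind DNA through TEAD proteins. Of 13 genes of this pathway 8 were lower and 5 higher, with a median of -0.19, against 45.4% and 54.6% of all genes. Without overlap 3 were lower and 1 higher, against 10.5% and 12.6% of all genes, and none passed the adjusted threshold. The YAP and TAZ target Ccn2 had signals of 1966, 2411 and 2577 in Carm1 knockout lungs, against 3403, 4531 and 3771 in wild-type lungs (log2 -0.75, limma adjusted p = 0.106), and Wwtr1, which encodes TAZ, 6210.2, 6117 and 5627 in Carm1 knockout lungs, against 8119, 8400.4 and 7554 in wild-type lungs (log2 -0.42, limma adjusted p = 0.135). Neither overlapped. The scaffold Ajuba was lower at 2039 ± 154 in knockout and 2627 ± 116 in wild type, while Tead2 was higher at 869 ± 35.4 in knockout and 629 ± 83.4 in wild type and Yap1 overlapped at 2910.1 ± 152 in knockout and 2648 ± 253 in wild type.

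Other genes of the type I cell, 15 in all, were lower in 14 cases, 12 of them without overlap, against 45.4% and 10.5% of all genes. Their median was -0.61, against -0.57 for the 10 genes above and 0.029 for all genes. Again none passed the adjusted threshold. This list was chosen with earlier results of these data known, so its counts and median are no independent result. The basement membrane collagen chains Col4a4 and Col4a3, which lie next to each other in the genome, had signals of 1628, 1626 and 985 in Carm1 knockout lungs, against 3874, 3412 and 3662 in wild-type lungs for Col4a4 (log2 -1.40) and 302, 321 and 192 in Carm1 knockout lungs, against 1030.3, 675 and 803 in wild-type lungs for Col4a3 (log2 -1.64). The limma adjusted p was 0.0852 for both. Timp3, a matrix-bound protease inhibitor, was at 3356 ± 397 in knockout and 6129 ± 869 in wild type (log2 -0.87). The 1 higher gene was Igfbp2, which binds insulin-like growth factors, at 1650.2, 1138 and 1794 in Carm1 knockout lungs, against 381, 623 and 573 in wild-type lungs (log2 1.54, limma adjusted p = 0.0852).

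**Figure D4:**
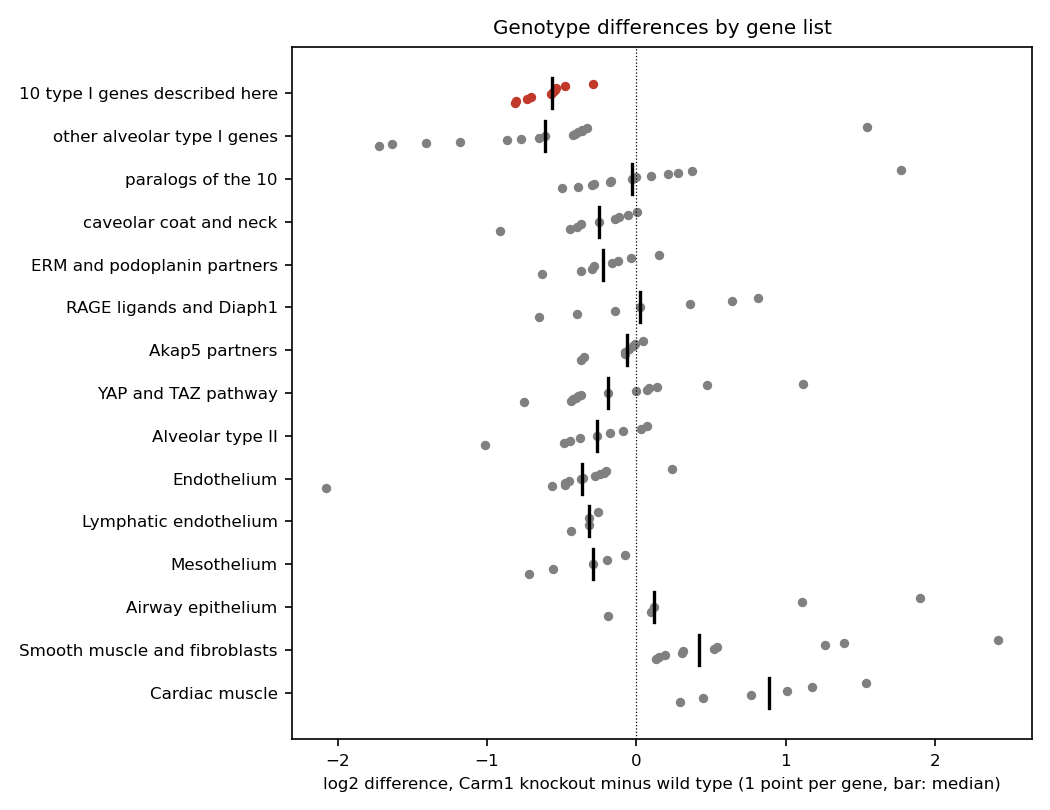
Log2 difference, Carm1 knockout minus wild type, of each tested gene by list (x axis: log2 units; 1 point per gene at its probe set of highest mean signal; black bars: medians). The 10 genes described here lie between -0.81 and -0.29, the paralogs spread around 0, and the smooth muscle, fibroblast and cardiac lists lie above 0.

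Markers of other lung cells differed as well, and their part in the differences above was not tested. Among all genes 45.4% were lower and 54.6% higher, and 10.5% were lower and 12.6% higher without overlap. Endothelial markers, which stand beside Cav1, Cav2 and Emp2, were lower in 11 of 12 genes, 8 without overlap, with a median of -0.36. The summed signal of these markers was 21641 to 24102 in knockout and 28184 to 31079 in wild type. Markers of lymphatic endothelium were lower in 4 of 4 (median -0.32, summed signal 4464 to 5649 in knockout and 6254 to 7454 in wild type) and mesothelial markers in 5 of 5 (median -0.29, summed signal 11675 to 13861 in knockout and 14415 to 16336 in wild type), both beside Pdpn. Only 2 of these 4 lymphatic and 1 of these 5 mesothelial markers were without overlap. The mesothelial sum is weighted to its brightest gene, Krt19, which overlapped at 7725 ± 683 in knockout and 8187 ± 1351 in wild type. Smooth muscle and fibroblast markers, which also stand beside the caveolins, were higher in 10 of 10 (median 0.42, summed signal 55238 to 74485 in knockout and 46955 to 53726 in wild type). Cardiac markers, beside Hopx, were higher in 6 of 6, with a median of 0.89 and overlapping groups in 5, and their summed signal was 14009.9 to 40637 in knockout and 5548 to 16691 in wild type. Some of these markers had signals close to the filter on dim signals, 59.7. The lymphatic marker Prox1 had 75.1, 70.4 and 39.1 in knockout, against 113, 80.4 and 38.8 in wild type. The mesothelial marker Wt1 had 78.8, 146 and 94.9 in knockout, against 76.9, 134 and 160 in wild type. Both overlapped, so their place in the counts rests on dim signals. The smooth muscle marker Cnn1 had 182, 389 and 132 in knockout, against 112, 66.4 and 91.1 in wild type.

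Within the epithelium, type II markers were lower in 7 of 9 genes, 3 of them without overlap, against 45.4% and 10.5% of all genes. Their median was -0.27, and their summed signal was 131802 to 156252 in knockout and 148034 to 188870.0 in wild type. Airway markers, beside Gprc5a, were higher in 4 of 5, 1 of them without overlap, against 54.6% and 12.6% of all genes. Their median was 0.12, and their summed signal was 77662 to 85715 in knockout and 67311 to 100403 in wild type. The airway marker without overlap was Krt15, at 2662, 2436 and 5748 in Carm1 knockout lungs, against 830, 1231 and 702 in wild-type lungs (log2 1.90, limma adjusted p = 0.0934). Of the epithelial genes shared by these cells, Epcam, a surface protein of epithelium, was at 3312, 3299 and 3907 in Carm1 knockout lungs, against 3046, 2465 and 2926 in wild-type lungs, higher without overlap (log2 0.32, limma adjusted p = 0.293). That is its brightest probe set, and the 2 probe sets of Epcam ran from -0.13 to 0.32. Cdh1, the epithelial cadherin, overlapped at 8008 ± 465 in knockout and 8314 ± 225 in wild type, as did the lung epithelial transcription factor Nkx2-1 at 364 ± 123 in knockout and 402 ± 83.8 in wild type.

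Set against these markers within each array, the 10 genes stayed lower relative to the epithelial markers used but not clearly relative to the mean of the endothelial markers. Their mean log2 value less that of the type II markers, set to its wild-type mean, was -0.30, -0.23 and -0.37 in knockout lungs, against 0.00, 0.10 and -0.09 in wild-type lungs. Less the mean of Epcam, Cdh1 and Nkx2-1, it was -0.66, -0.47 and -0.76 in knockout lungs, against 0.09, 0.08 and -0.17 in wild-type lungs. Neither of these overlapped. Less the mean of the endothelial markers, it was -0.18, 0.06 and -0.32 in knockout lungs, against 0.17, 0.00 and -0.17 in wild-type lungs, and there the groups overlapped. That mean includes Car4, which differed by -2.08 where the median of the endothelial list was -0.36, so the endothelial ratio rests in part on 1 gene. The second epithelial ratio rests on 3 genes, with Epcam at its higher probe set. These ratios too do not show which side changed.

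The genes most like the mean profile of the 10 over the 6 arrays, by Pearson's r among 12937 other genes, were Hcfc2, Rab21, Apbb1, Gm16740, Cdkn2b, Dennd3, Klhl26, Il33, Ms4a8a and Chia1, with r between 0.988 and 0.996. In all, 185 genes had an r of at least 0.95. The profile itself was below 0 on all 3 knockout arrays and above 0 on all 3 wild-type arrays. Genes picked for likeness to it are therefore lower in knockout by that choice, and their direction is no separate result. Of the 10 named, Chia1, an acidic chitinase of airspace epithelium, had the largest difference, at 342, 413 and 178 in Carm1 knockout lungs, against 1706, 982 and 952 in wild-type lungs (log2 -2.0, limma adjusted p = 0.0934). Cdkn2b, an inhibitor of cyclin-dependent kinases, was at 733, 829.9 and 484 in Carm1 knockout lungs, against 1995, 1521 and 1227 in wild-type lungs (log2 -1.22). Il33, a cytokine stored in the nucleus of epithelial cells, was at 904, 1053 and 592 in Carm1 knockout lungs, against 1639, 1458 and 1227 in wild-type lungs. By deviations within genotypes alone the closest were H2-D1, Degs1 and Ino80, with r from 0.997 to 0.999, and Gm16740, Apbb1 and Rab21 were among the closest 10 by both measures.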

How the data were processed

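Total mouse lung RNA of 6 samples was hybridised to a whole-genome 3' array, 1 array per sample, and groups came from the sample descriptions. Linear signal intensity was deposited, computed by the authors in MAS5 per the submitters' processing notes. Neither its version nor its settings are given in the sources used here. With 2% trimmed from both ends, each array's mean was 500. Symbols came from the platform annotation and were updated through gene ID to RefSeq GRCm38.p6: of 45101 probe sets, 34945 had a single symbol (34741 of them matched), 932 several, and 9160 are unnamed here. The filter dropped 64 control probe sets and those whose mean log2 was below the 40th percentile (59.7 in signal), which left 27022.

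Log2 values (no offset) were tested with limma 3.58.1 in R 4.3.3 (lmFit, eBayes with trend, two-sided), knockout minus wild type, with Benjamini-Hochberg adjustment over all tested probe sets and a threshold of 0.05. The code was tested on simulated data. Genes count by their probe set of highest mean signal, and single values had an exact permutation test, which cannot go under 0.1 here. Precision is limited by the number of arrays. The genes, lists and named genes (all 10 genes, the members of smallest p of each list, those most alike in profile, and others picked after their values were seen) were chosen with earlier results of these data known, and the ratios to paralogs were added later. Alternatives were normalization, filter, variance model, offset, choice of probe set, replicate block, sex, bacterial control RNA and each array left out. Protein sequences were not used here, and 1 list of partner genes is not reported here.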

Additional observations from a re-analysis of the deposited data

How the results depend on the processing

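Under all 18 alternatives tried, each of the 10 genes stayed lower in knockout, 180 of 180 values, and none of the 180 passed the adjusted threshold. The count of the genes' probe sets past that threshold was 0 of 20 by limma in the main setting (17 at an unadjusted p under 0.05) and 0 under each alternative run for it. Their lowest adjusted p was 0.0749 with the filter at the 60th percentile, 0.273 without an intensity trend and 0.491 with bacterial control RNA as a term. With robust variance it was 0.05 to 2 decimals and did not pass. The alternatives of filter, variance model, replicate block and sex leave each log2 difference as in the main setting, so their part of the 180 values repeats it. The fit with bacterial control RNA as a term gave the same differences as the fit on the arrays without it. The median difference of -0.57 ran from -0.73 with knockout replicate 2 left out to -0.45 with knockout replicate 3 left out, over the 6 fits that left out an array. Over all probe sets the count of calls was 8 in the main setting, 0 without an intensity trend, 40 with robust variance, 2 with bacterial control RNA as a term, 3 on the 4 arrays without it and 4 with sex as a term. It was 0 with the replicate block, and the lowest limma adjusted p of the genes' probe sets with that block was 0.136. Deviations of same-numbered arrays from their genotype means had r of -0.14, -0.38 and -0.0056. With 3 arrays per genotype these values cannot tell whether such arrays share more than a number. Leaving out an array gave counts from 0 to 13: 13 when knockout replicate 1 was dropped, 2 when wild type replicate 2 was, and 0 for each of the other 4. The cause was not tested. The number of arrays, 3 per genotype, limits what can pass.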
